A study of Mus musculus with 6 samples.

Results

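The genes described here are 9 output factors and stabilising-loop regulators of the circadian clock, namely Dbp, Tef, Hlf, Nfil3, Bhlhe40, Bhlhe41, Ciart, Rora and Usp2. They were taken by symbol from the 52550 mouse genes of the deposited table, for their function, with earlier results of these data known. RNA came from male mice 13 weeks old, 3 FLExDUX4 mice and 3 wild-type (WT) littermates, and was read from the 3′ end of polyadenylated transcripts with QuantSeq. FLExDUX4 mice are hemizygous for an inverted human DUX4 transgene at the Rosa26 locus. No Cre was present to invert the transgene, and its expression is described as leaky and very low. The labels give quadriceps muscle, whereas the methods give triceps muscle from younger mice. The hour at which the muscles were taken is not given in the sources used here. The human transgene was not analysed here.

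In mammals, CLOCK and BMAL1 (the product of Arntl) bind E-boxes and switch on their own repressors, which closes a daily loop. A stabilising loop runs through ROR elements, where ROR proteins activate and REV-ERB proteins (Nr1d1 and Nr1d2) repress Arntl. Output passes through D-boxes, which are activated by the PAR bZIP factors DBP, TEF and HLF and repressed by NFIL3. In skeletal muscle these loops time the expression of genes for fuel use.

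Each genotype is represented by a single total count per gene over its 3 mice. Columns of single animals matched no sample label and were not used, so that no spread between mice was computed and no test was run. The counts on genes came to 13110125 for FLExDUX4 mice and 18367364 for WT mice, so that a gene with equal relative abundance has fewer counts in FLExDUX4 mice. Levels are CPM, the counts divided by their TMM-scaled total (edgeR) and multiplied by 1e6. Since QuantSeq gives about 1 read for a transcript of any length, CPM can be compared between genes. Differences are given as the log2 ratio of FLExDUX4 to WT, with a 95% Clopper-Pearson interval that covers counting error only. A single mouse could set any of these ratios. That the RNA came from skeletal muscle was checked on 12 fiber markers, which do not separate quadriceps from triceps. They summed to 146240.4 CPM in FLExDUX4 mice and 148522.5 CPM in WT mice, with log2 ratios from -0.19 to 0.05.

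All 9 genes had enough counts to be compared, from 140 counts over both genotypes for Ciart to 13710 for Usp2. Ciart and Dbp were higher in FLExDUX4 mice by at least 1.5-fold, and none of the 9 was lower by that fold. Over the 13396 genes compared, 13.2% were higher and 13.5% were lower by at least 1.5-fold. Among the 8381 genes with at least as many counts as Ciart, a limit set after the counts were seen, these shares were 5.05% and 4.55%. At 2-fold only Ciart of the 9 was higher and none was lower, against 5.99% higher and 7.43% lower over all genes compared. The counting interval lay above 0 for 7 of the 9 genes and below 0 for none, whereas with spike-in RNAs as the scale in place of TMM it lay above 0 for 4 (Dbp, Bhlhe40, Ciart and Usp2) and below 0 for 4 (Tef, Nfil3, Bhlhe41 and Rora). Over all genes compared, it lay above 0 for 20.5% and below 0 for 20.6% under TMM, and for 7.59% and 47.1% on the spike-in scale. The median log2 ratio was 0.46 for the 9 genes and -0.00101 for all genes compared. With spike-in scaling every log2 ratio moved by -0.28 and the median of the 9 genes became 0.18. Any log2 ratio printed here under TMM between 0 and 0.28 is therefore negative on the spike-in scale.

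**Figure D1:**
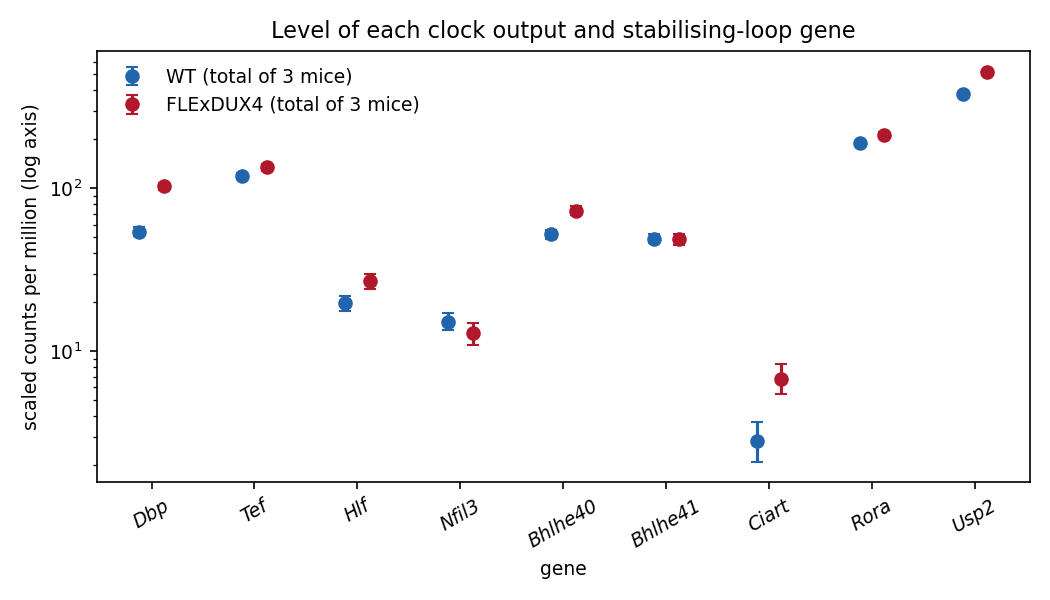
Level of each of the 9 genes in CPM (log axis) for the WT total (blue) and the FLExDUX4 total (red), with exact 95% Poisson intervals for counting error. Usp2 had the highest level and Ciart the lowest in both genotypes, and Dbp and Ciart show the widest separation between genotypes.

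The levels covered a wide range. In WT mice the order was Usp2 (377.0 CPM), Rora (190.3 CPM), Tef (119.5 CPM), Dbp (54.3 CPM), Bhlhe40 (52.2 CPM), Bhlhe41 (49.2 CPM), Hlf (19.7 CPM), Nfil3 (15.2 CPM) and Ciart (2.80 CPM). The counting intervals of Dbp (51.0 to 57.7 CPM) and Bhlhe40 (48.9 to 55.6 CPM) overlapped in WT mice, as did those of Bhlhe40 and Bhlhe41 (46.1 to 52.5 CPM). Those of the other neighbours in that order did not overlap, the closest being Hlf (17.7 to 21.8 CPM) and Nfil3 (13.5 to 17.1 CPM). The order was the same in FLExDUX4 mice, but there Dbp (97.4 to 108.5 CPM), Bhlhe40 (68.3 to 77.6 CPM) and Bhlhe41 (45.1 to 52.7 CPM) were apart.

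Dbp encodes a PAR bZIP activator of D-boxes and is among the strongest rhythmic transcripts known across mouse tissues. Dbp (ENSMUSG00000059824, a protein-coding gene at chr7:45705088-45710203 of GRCm38, plus strand) had 1334 counts in FLExDUX4 mice and 1007 in WT mice. This was 102.8 CPM against 54.3 CPM, a log2 ratio of 0.92 (interval 0.80 to 1.04), or 1.89-fold. The ratio was 0.65 when scaled to the spike-ins, still above 1.5-fold. Of the 1164 genes with at least as many counts, 3 had a higher ratio, namely Glul, Chac1 and Cep85l, which were named after their values were seen. The end of Dbp overlaps that of Sphk2 on the other strand by 737 bases, and without a stated strand setting their reads cannot be told apart there. Sphk2 had 140 counts in FLExDUX4 mice and 253 in WT mice, the opposite direction to Dbp. Apart from Sphk2 and a transcript across Ciart, no gene that overlaps one of the 9 had more than 4 counts in either genotype.

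Hlf and Tef encode the other PAR bZIP factors. Hlf (ENSMUSG00000003949, chr11:90336536-90390895, minus strand) had 350 counts in FLExDUX4 mice and 365 in WT mice, which is 27.0 CPM against 19.7 CPM. Its log2 ratio was 0.46 (interval 0.24 to 0.67), and with spike-in scaling it was 0.18, with an interval that included 0 (-0.04 to 0.40). Tef (ENSMUSG00000022389, chr15:81802421-81826863, plus strand) had 1745 counts against 2217, or 134.5 CPM against 119.5 CPM. Its log2 ratio of 0.17 (interval 0.08 to 0.26) changed sign with spike-in scaling, to -0.10 (interval -0.20 to -0.01). Of the 3 PAR bZIP genes, only Dbp had an interval above 0 under both scalings.

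Nfil3 encodes a bZIP repressor that binds the same D-boxes. Nfil3 (ENSMUSG00000056749, chr13:52967209-52981073, minus strand) had 167 counts in FLExDUX4 mice and 283 in WT mice, which is 12.9 CPM against 15.2 CPM. Its log2 ratio was -0.24 and the interval (-0.53 to 0.04) included 0, so that no difference was detectable at this depth under TMM. With spike-in scaling the ratio was -0.52 (interval -0.81 to -0.24).

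The balance of these activators and their repressor can be compared within each genotype, where no scaling is needed. PAR bZIP transcripts outnumbered Nfil3 transcripts by 12.7 to 1 in WT mice (3589 and 283 counts) and by 20.5 to 1 in FLExDUX4 mice (3429 and 167 counts). This is a 1.62-fold higher ratio, with an exact conditional 95% interval of 1.32 to 1.98. The Dbp to Nfil3 ratio was 3.56 in WT mice and 7.99 in FLExDUX4 mice, 2.24-fold higher (interval 1.81 to 2.78). For Hlf the ratio to Nfil3 was 1.62-fold higher (interval 1.27 to 2.08), and for Tef it was 1.33-fold higher (interval 1.09 to 1.64). These ratios share the Nfil3 counts and are not independent of each other.

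The mix of PAR bZIP factors also differed. Dbp made up 28.1% of the PAR bZIP counts in WT mice (interval 26.6 to 29.6) and 38.9% in FLExDUX4 mice (interval 37.3 to 40.6). Tef made up 61.8% (interval 60.2 to 63.4) in WT mice and 50.9% (interval 49.2 to 52.6) in FLExDUX4 mice. Hlf had the same share in both, 10.2%. Tef was the most abundant of the 3 in both genotypes.

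**Figure D2:**
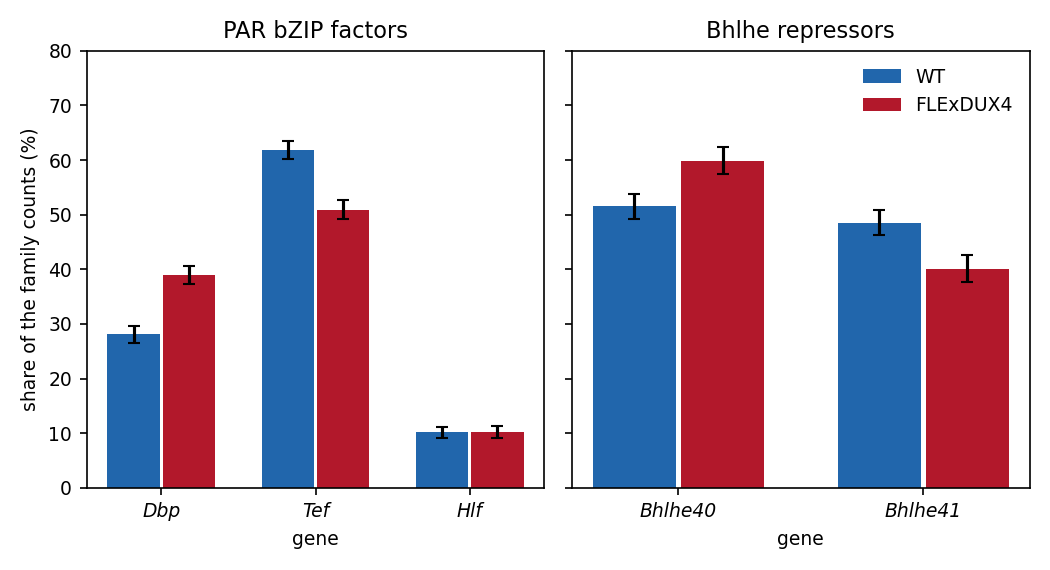
Share (%) of each gene in the counts of its family, for the PAR bZIP factors (left) and the Bhlhe repressors (right), in the WT total (blue) and the FLExDUX4 total (red), with 95% Clopper-Pearson intervals. The share of Dbp was 28.1% in WT and 38.9% in FLExDUX4, and that of Bhlhe40 was 51.5% and 59.9%.

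Bhlhe40 and Bhlhe41 encode DEC1 and DEC2, related repressors that compete for E-boxes. Bhlhe40 (ENSMUSG00000030103, chr6:108660629-108666925, plus strand) had 945 counts in FLExDUX4 mice and 968 in WT mice, or 72.8 CPM against 52.2 CPM. Its log2 ratio was 0.48 (interval 0.35 to 0.61) and 0.21 with spike-in scaling. Bhlhe40 is in the circadian list that the study chose on these same samples, as are Per2, Cry2, Arntl and Clock, and these 5 genes are therefore no independent evidence of a direction. Bhlhe41 (ENSMUSG00000030256, chr6:145858243-145865558, minus strand) had 633 counts against 913, or 48.8 CPM against 49.2 CPM. Its log2 ratio was -0.01 (interval -0.16 to 0.14) and -0.29 with spike-in scaling. The ratio of Bhlhe40 to its paralog was 1.06 in WT mice and 1.49 in FLExDUX4 mice. This difference, which does not depend on the scaling, was 1.41-fold (interval 1.23 to 1.62).

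Ciart encodes CHRONO, a repressor that binds BMAL1. Ciart (ENSMUSG00000038550, chr3:95878503-95882251, minus strand) had 88 counts in FLExDUX4 mice and 52 in WT mice, or 6.78 CPM against 2.80 CPM. The log2 ratio of 1.27 (interval 0.76 to 1.80) was the highest of the 9 genes and also the least precise, and it was 0.99 with spike-in scaling. Of the 8381 genes with at least as many counts, 16 had a higher ratio. Ciart lies inside C920021L13Rik, a transcript of the other strand that had 9 counts in FLExDUX4 mice and 28 in WT mice. The ratio of Ciart to Dbp was 1.28-fold higher in FLExDUX4 mice with an interval of 0.887 to 1.85, so that a difference between their ratios was not detectable at this depth.

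Promoter windows of 300 bases around RefSeq transcription starts (GRCm38.p6, 250 bases before and 50 after the start) were read for 8 of the 9 genes, all but Bhlhe40, and searched on both strands for motifs of the clock. These genes have 9 windows, since Tef has 2 starts. The E-box CACGTG was in 4 of the 9 windows, those of Ciart, Bhlhe41 and both Tef starts, and in 7.15% of all 32851 windows. Ciart held 3 E-boxes, which begin 116, 58 and 44 bases upstream of the start, and 0.0883% of all windows hold at least 3. The stretches around every E-box found are shown, since the E-box is the site on which CLOCK and BMAL1 act. Dbp, Hlf, Nfil3, Rora and Usp2 held none in their windows. They are written 5′ to 3′ on the strand of the gene, with the E-box in capitals. Those of Ciart and Bhlhe41 lie upstream of the annotated gene, and those of Tef lie in an exon and in an intron of the GENCODE annotation, ahead of separate RefSeq starts.
Ciart, chr3:95882252-95882369: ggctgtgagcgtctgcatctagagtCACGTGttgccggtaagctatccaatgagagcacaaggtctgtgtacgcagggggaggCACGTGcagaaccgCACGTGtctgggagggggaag
Bhlhe41, chr6:145865559-145865598: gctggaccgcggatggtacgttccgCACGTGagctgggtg
Tef, exon, chr15:81802534-81802563: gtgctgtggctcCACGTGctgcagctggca
Tef, intron, chr15:81811251-81811306: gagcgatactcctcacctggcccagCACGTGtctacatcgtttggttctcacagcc

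The D-box letters TTATGTAA (0.938% of all windows) and TTACGTAA (0.119%) were in no window of these genes. The ROR core AGGTCA was in the Nfil3 window alone, on the other strand and beginning 12 bases upstream of the start, and in 16.3% of all windows. The full ROR element, in which an A/T-rich stretch comes before the core, was in no window of these genes and in 0.18% of all windows. These matches describe the sequence of short windows and say nothing of sites elsewhere in the genes.

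**Figure D3:**
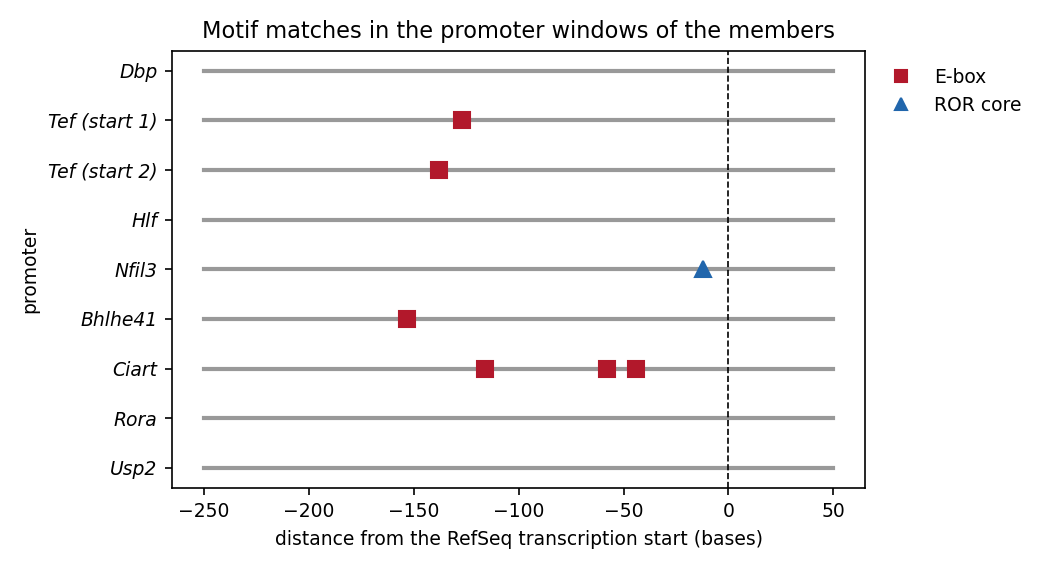
Positions of E-boxes (squares) and of the ROR core (triangle) in bases from the RefSeq transcription start (dashed line), for the 9 promoter windows of 8 genes, each drawn as a grey line from 250 bases before to 50 bases after the start. Ciart holds 3 E-boxes, Bhlhe41 and both Tef starts hold 1 each, and Nfil3 holds the ROR core.

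Rora encodes a nuclear receptor that activates Arntl through ROR elements. Rora (ENSMUSG00000032238, chr9:68653786-69388246, plus strand) had 2755 counts in FLExDUX4 mice and 3531 in WT mice, or 212.3 CPM against 190.3 CPM. Its log2 ratio of 0.16 (interval 0.09 to 0.23) changed sign with spike-in scaling, to -0.12 (interval -0.19 to -0.05). No difference in the ratio of Rora to its opponents was detectable at this depth. Rora to Nr1d1 was 3.66 in WT mice and 3.76 in FLExDUX4 mice, a 1.03-fold difference (interval 0.923 to 1.15). Rora to Nr1d2 was 2.65 and 2.77, a 1.04-fold difference (interval 0.946 to 1.15).

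Usp2 encodes a deubiquitinase that acts on clock proteins. Usp2 (ENSMUSG00000032010, chr9:44067021-44095627, plus strand) had 6713 counts in FLExDUX4 mice and 6997 in WT mice, or 517.4 CPM against 377.0 CPM. The log2 ratio of 0.46 (interval 0.41 to 0.51), or 1.37-fold, was the most precise of the 9 genes and was 0.18 (interval 0.13 to 0.23) with spike-in scaling. It was under 1.5-fold. Of the 150 genes with at least as many counts, only H19, an imprinted noncoding RNA named after its value was seen, had a higher ratio (0.51). In a list of other ubiquitin-specific protease genes, which does not cover the whole family, 35 were compared. Of these, 10 were higher and 25 lower, with a median log2 ratio of -0.04, where 49.9% of all genes compared were above 0. By 1.5-fold none was higher and 1 was lower, against 13.2% and 13.5% over all genes compared. This was Usp54, named after its value was seen (-1.15 from 17 and 55 counts). With spike-in scaling 3 were higher and 32 lower. Past 1.5-fold on that scale none was higher and 7 were lower, against 7.82% and 23.7% over all genes compared. The most abundant gene of this list, Usp13, had 4426 counts in FLExDUX4 mice, 6055 in WT mice and a log2 ratio of 0.06 (interval 0.01 to 0.12).

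**Figure D4:**
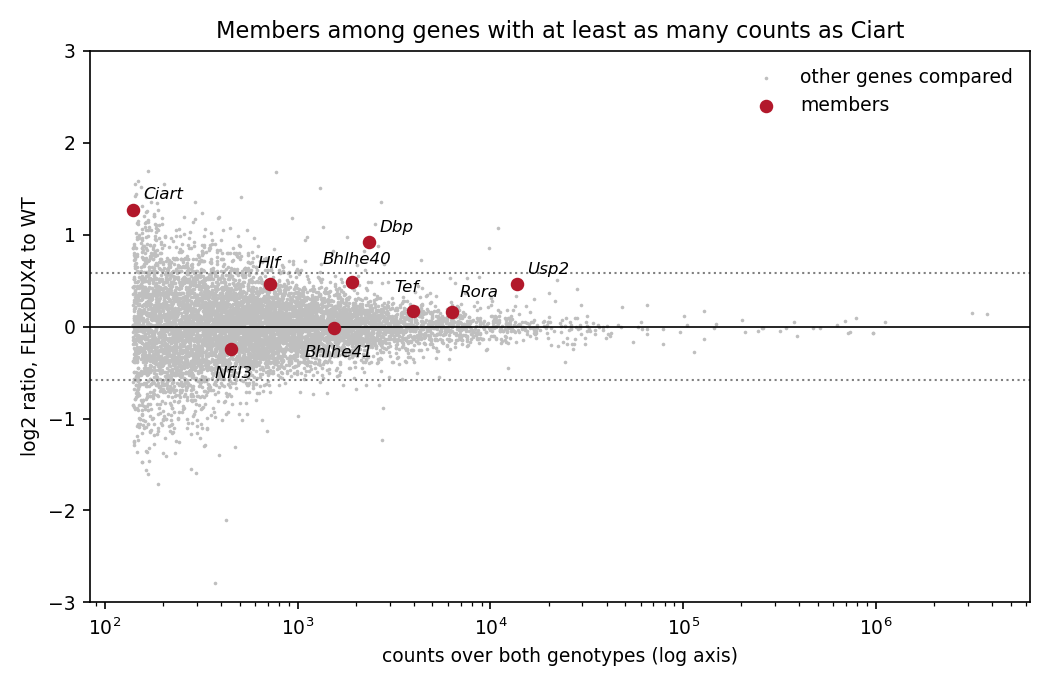
Log2 ratio of FLExDUX4 to WT against counts over both genotypes (log axis) for the 8381 genes with at least as many counts as Ciart (grey) and the 9 genes described here (red), with dotted lines at 1.5-fold. Dbp and Ciart lie above the upper line, and Usp2 lies below it, with 1 of the 150 genes of at least its counts above it.

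The transcripts of the core clock were compared in the same way. Of 12 genes in the core lists, 11 had enough counts, and 8 of these were higher and 3 lower. Their median log2 ratio was 0.12, which became -0.16 with spike-in scaling. Past 1.5-fold, 4 were higher (Per2, Arntl2, Per1 and Cry2) and 2 lower (Arntl and Clock), against 13.2% higher and 13.5% lower over all genes compared. With spike-in scaling, 1 core clock gene was higher by that fold and 3 were lower, against 7.82% and 23.7% over all genes compared on that scale. Of the 6 genes named, Per2, Cry2, Arntl and Clock are in the study's own list from these samples. Noct, Gsk3b and Fkbp5, named further on, are in other pathway lists of the study from these samples and are not independent of it either. In the positive limb, Arntl had the lowest ratio, -1.30 (interval -1.71 to -0.93), from 72 and 255 counts. Clock had a ratio of -0.71, and Arntl2 had 0.74 from 20 and 17 counts, with an interval that included 0.

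In the negative limb, Per2 had the highest ratio, 1.41 (interval 1.14 to 1.68). Per1 had 579 counts in FLExDUX4 mice and 507 in WT mice, a log2 ratio of 0.71 (interval 0.53 to 0.88). For Per3 the counts were 440 and 454 and the ratio was 0.47 (interval 0.28 to 0.66), close to that of Hlf, Bhlhe40 and Usp2. Cry2 had a ratio of 0.70. Cry1 went the other way, at 163 counts in FLExDUX4 mice and 309 in WT mice, for which the ratio was -0.40 (interval -0.69 to -0.13).

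In the stabilising loop, the intervals of Nr1d1 (ratio 0.12, interval -0.02 to 0.26) and Nr1d2 (ratio 0.10, interval -0.02 to 0.22) included 0, as did that of the scarce Rorb (ratio 0.12 from 12 and 16 counts). Among kinases and ligases that act on clock proteins, 6 genes were compared, 3 higher and 3 lower. None passed 1.5-fold, against 13.2% higher and 13.5% lower over all genes compared. With spike-in scaling 1 was higher and 5 lower, 1 of them by 1.5-fold, against 7.82% higher and 23.7% lower over all genes compared. Gsk3b had a ratio of 0.27 (interval 0.20 to 0.34) and Csnk1e of 0.30 (interval 0.17 to 0.43).

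Of the pairs compared, Dbp and Arntl showed the largest difference between genotypes. The Dbp to Arntl ratio was 3.95 in WT mice and 18.5 in FLExDUX4 mice, 4.69-fold higher (interval 3.55 to 6.26). The Nfil3 to Arntl ratio was 1.11 and 2.32, 2.09-fold higher (interval 1.49 to 2.94).

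**Figure D5:**
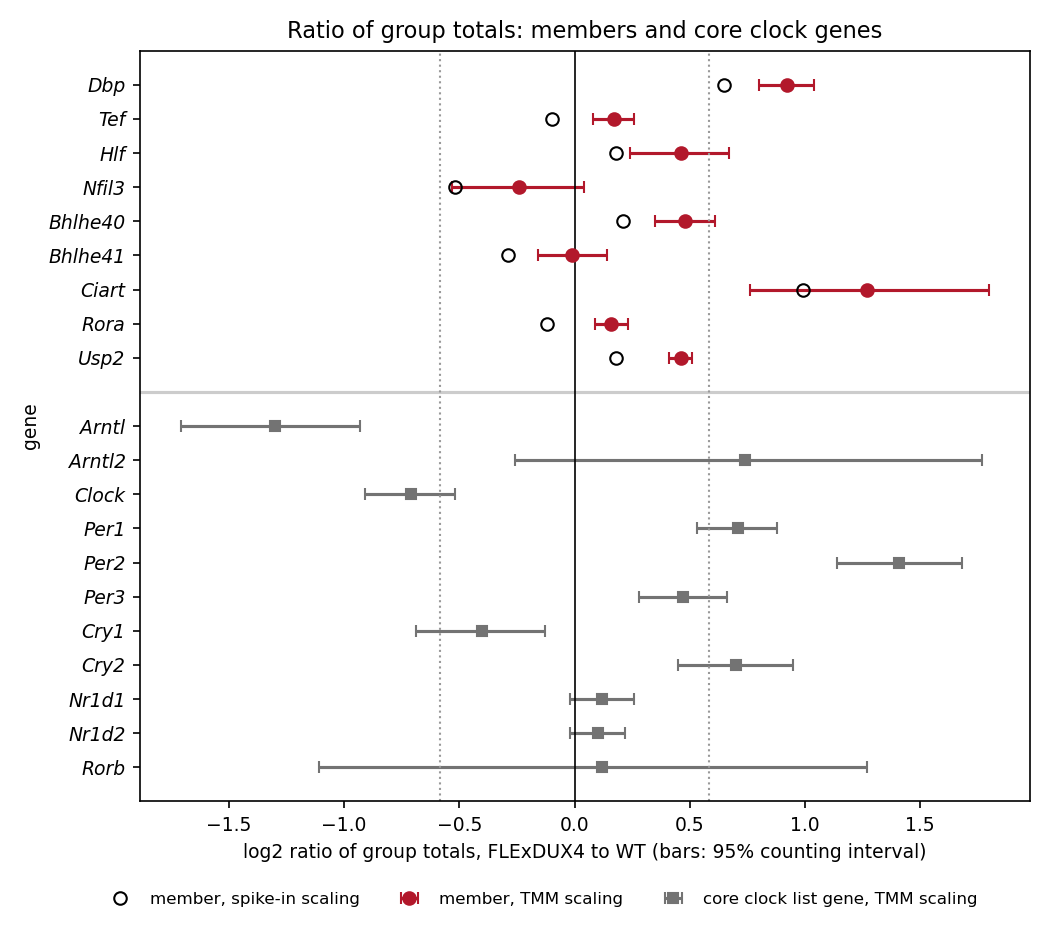
Log2 ratio of the group totals, FLExDUX4 to WT, with 95% counting intervals, for the 9 genes described here (red) and the 11 core clock genes compared (grey squares). Open circles give spike-in scaling for the 9 genes alone, and dotted lines mark 1.5-fold. Ciart (1.27) and Dbp (0.92) of the 9 genes lie to the right of the upper line. So do Per2 (1.41), Arntl2 (0.74), Per1 (0.71) and Cry2 (0.70) of the core clock. Arntl (-1.30) and Clock (-0.71) lie to the left of the lower line. Of the 9 genes, spike-in scaling moves Tef and Rora across 0.

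Of 16 genes known to be timed by the clock or to respond to it in some tissue, 12 were higher and 4 lower in FLExDUX4 mice, and their median ratio was 0.26 (log2). Past 1.5-fold, 5 were higher (Pdk4, Noct, Fmo2, Tspan4 and Ucp3) and 1 lower (Pfkfb3), those other than Pdk4 being named after their values were seen, against 13.2% and 13.5% over all genes compared. With spike-in scaling 8 were higher and 8 lower, and past 1.5-fold none was higher and 3 were lower, where 7.82% and 23.7% of all genes compared passed. Pdk4, which restrains the use of glucose in fasting muscle, had 5470 counts in FLExDUX4 mice, 4329 in WT mice and a ratio of 0.85 (interval 0.80 to 0.91). Tcap, a sarcomere protein, had a ratio of 0.23 (interval 0.21 to 0.25), and Tsc22d3 had 0.18 (interval 0.12 to 0.25). Nampt, which makes a precursor of NAD, had a ratio of 0.07 and an interval that included 0 (-0.03 to 0.17).

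Relatives of these factors within their protein families were listed for comparison. Of 8 other bZIP genes compared, 7 were higher, with a median log2 ratio of 0.10. None passed 1.5-fold, against 13.2% higher and 13.5% lower over all genes compared. With spike-in scaling 3 of the 8 were higher and 5 lower. The most abundant, Atf4, had a ratio of 0.02 (interval -0.07 to 0.11), and Cebpb had 0.15 (interval -0.01 to 0.30). Of 8 other genes of bHLH repressors and Id proteins compared, 6 were higher and 2 lower, with a median of 0.33. Past 1.5-fold none was higher and 1 was lower, Heyl, named after its value was seen (-1.43), against 13.2% and 13.5% over all genes compared. With spike-in scaling 5 were higher and 3 lower. Hes1 had a ratio of 0.27 (interval 0.09 to 0.45) and Id3 of 0.37 (interval 0.18 to 0.55). Whether the members differ from their relatives was not tested.

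Markers of other cells were summed for each genotype, with counts of genes under TMM. The 5 blood genes, 4 of them globin copies that can share reads, were all higher in FLExDUX4 mice, with log2 ratios from 0.25 to 0.45 and a summed level of 1279.0 CPM against 1019.8 CPM. The 6 markers of fibro-adipogenic cells were all higher (0.04 to 0.53), 4 with an interval above 0, with a sum of 1745.9 CPM against 1591.8 CPM. Of 6 adipocyte markers 5 were higher, 4 with an interval above 0 (383.8 CPM against 303.0 CPM). Such an interval was found for 20.5% of all genes compared. The 6 endothelial markers went both ways, 2 higher and 4 lower (186.4 CPM against 200.7 CPM), as did the leukocyte markers, 3 and 3 (65.7 CPM against 66.1 CPM). Of 4 Schwann cell markers 2 were higher (120.4 CPM against 117.4 CPM), and of 4 tendon markers 3 were higher (156.3 CPM against 149.3 CPM). Of the 3 satellite cell markers compared, 1 was higher (28.6 CPM against 31.2 CPM for all 4). With spike-in scaling 4 of 5 blood genes, 3 of 6 fibro-adipogenic and 3 of 6 adipocyte markers were higher, as were 1 of 6 endothelial, 2 of 6 leukocyte, 1 of 4 Schwann cell, 1 of 4 tendon and 1 of 3 satellite cell markers. Each of these markers had more than 3 counts in each genotype. The part of other cells in the ratios of the clock genes was not tested, and more cells of a type and more RNA per cell cannot be told apart in whole muscle.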

How the data were processed

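Per the methods and the submitters' processing notes, cutadapt 1.16 removed adapters, STAR 2.5.3a mapped the reads to GRCm38 plus the ERCC and SIRV spike-ins, and the authors' comparison used DESeq2. The notes also name featureCounts 1.6.2, and the strand setting is not given in the sources used here. The deposited counts used here are raw counts per gene summed over the 3 mice of a genotype. Another 6 columns hold values of single animals under names that match no sample label and were not used. The authors' normalized mean, fold changes and p-values were not used either.

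filterByExpr of edgeR 4.0.16 kept 13396 genes, on which TMM factors for the totals were computed in R 4.3.3. A pseudocount of 0.5 was added before taking log2. Intervals (95%, scipy 1.17.1) cover counting error only. The planned edgeR quasi-likelihood test needs values per mouse and was not run. A fold of 1.5 stood in for a test. Symbols on several rows were taken from the row with the most counts. The members and all lists were chosen with earlier results of these data known. Named genes are the 9 members, the core clock genes, up to 4 genes of the most counts in each other list, and genes said to be named after their values were seen. The remaining lists were clock kinases and ligases, clock outputs, bZIP, bHLH and Usp relatives, glucocorticoid response, immediate early genes and cell type markers. Gene positions are those of GENCODE M21 where its start equals the deposited one. Promoter sequences are from RefSeq (GRCm38.p6). Proteins were not analysed here, and 1 gene of the planned core clock lists is not reported here. Intervals were tested on simulated totals that vary by counting error alone, which cannot show how they fare with spread between mice. Alternatives were other scalings, filters, a pseudocount of 5, a 2-fold threshold and a call by the counting interval.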

Additional observations from a re-analysis of the deposited data

How the results depend on the processing

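No paired analysis was possible because the replicate numbers of the labels are tied to no column used here. Leaving out each replicate in turn was not run, since the columns of single animals were not used. Scaling by RLE size factors, upper quartile, gene totals or gene totals without the 10 genes of the most counts, no filter, a filter of at least 60 counts and a pseudocount of 5 kept every ratio of the 9 genes within its counting interval. The counts of the 9 genes and of the core clock genes past 1.5-fold stayed within 1.5 times. The other lists were compared again on the spike-in scale only. A pseudocount of 5 moved the median of the core clock genes from 0.12 to 0.21. Spike-in totals moved the median of the 9 genes to 0.18 and that of the core clock genes to -0.16. They gave ratios of 0.65 for Dbp, -0.10 for Tef, 0.18 for Hlf, 0.21 for Bhlhe40, -0.29 for Bhlhe41, -0.12 for Rora and 0.18 for Usp2, and left 1 core clock gene higher and 3 lower by 1.5-fold. Why spike-ins and genes differ was not tested. At 2-fold, 1 of the 9 genes was higher, and 1 core clock gene was higher and 1 lower. By the counting interval, 7 of the 9 were higher and none lower under TMM, and 4 were higher and 4 lower on the spike-in scale. Depth limited Ciart and Nfil3 most, with 140 and 450 counts in all.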

Other observations

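Of 11 glucocorticoid-responsive genes compared, 9 were higher in FLExDUX4 mice and 2 lower. By 1.5-fold 4 were higher (Glul, Zbtb16, Klf15 and Fkbp5, the last 3 named after their values were seen) and none lower, against 13.2% and 13.5% over all genes compared, and the median log2 ratio was 0.41. With spike-in scaling 6 were higher and 5 lower, 4 were higher and 1 lower by 1.5-fold, against 7.82% and 23.7%, and the median was 0.14. The most abundant of them was Glul, which makes glutamine, at 6526 counts in FLExDUX4 mice and 4437 in WT mice, for which the ratio was 1.07 (interval 1.02 to 1.13). Sgk1 had a ratio of 0.07 with an interval that included 0 (-0.02 to 0.16), and Ddit4 was lower, at -0.54 (interval -0.69 to -0.39). Tsc22d3, which is also in the list of clock outputs, had 0.18. Glul is also among the 3 genes with at least as many counts as Dbp and a higher ratio. The others were Chac1, an enzyme of glutathione breakdown, with 1521 counts against 1001 (ratio 1.12), and Cep85l, with 1741 counts against 972 (ratio 1.36).

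Immediate early genes were listed as a further comparison. Of 13 compared, 10 were lower in FLExDUX4 mice and 3 higher, 5 were lower and 2 higher by 1.5-fold, against 13.5% and 13.2% over all genes compared, and the median log2 ratio was -0.43. With spike-in scaling 9 were lower and 2 higher by 1.5-fold, against 23.7% and 7.82%, and the median was -0.70. For Nr4a1, with 1595 and 2876 counts, the ratio was -0.33 (interval -0.42 to -0.25). Jun had -0.20 (interval -0.30 to -0.10), Klf4 had -0.48 (interval -0.67 to -0.30) and Jund had -0.42 (interval -0.62 to -0.22). The part of either list in the ratios of the clock genes was not tested.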
